A study of Mus musculus with 2 samples.

Results

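Ephrins, semaphorins, slits and netrins, with the Eph, plexin, Robo, Dcc and Unc5 receptors, were examined in cultured astrocytes of the mouse dentate gyrus (DG). A gene was taken when its symbol in the deposited tables named an ephrin, an Eph receptor, a semaphorin of classes 3 to 7, a plexin, Slit1 to Slit3, Robo1 to Robo4, a netrin, an Unc5 receptor or Dcc. This gave 63 of the 16302 genes in the joined tables, 35 ligands and 28 receptors. All 63 were listed in the WT table and 61 in the KO table. Epha1, Epha8, Epha10 and Unc5a were not analysed here.

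The astrocytes came from adult C57BL/6 mice, either wild type (WT) or lacking β-arrestin 1 (β-arr1 KO, labelled Beta-arr1 knockout). Both groups were grown the same way in medium with serum, without any treatment, and cultures were shaken to detach dividing cells, precursors of oligodendrocytes and neurons before RNA was sequenced from 1 cDNA library per genotype. The series describes the libraries as pooled cDNA, and the labels name the mice themselves as β-arr1-/-, with no restriction of the deletion to astrocytes. With 1 library each the spread between cultures is unknown and genotype could not be tested, so every difference below is one between these 2 libraries, which had no replicate check.

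These families steer growing axons and migrating cells. Ephrins are membrane-bound ligands that signal through Eph receptor tyrosine kinases on a neighbouring cell and can also signal back into their own cell. Class 3 semaphorins are secreted and act through neuropilins and A-type plexins, whereas most other classes are membrane proteins that bind plexins directly. Slits are secreted ligands of Robo receptors, and netrins are laminin-related proteins that bind Dcc, neogenin and Unc5 receptors. Astrocytes are known to make several of them.

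Expression was given in FPKM, the sequenced fragments of a gene scaled for the length of its transcript and for the mapped fragments of the library, so that levels of genes can be set side by side. The steps between the lowest values corresponded to about 9.38 M mapped fragments in WT and 9.52 M in KO. From these, the fragments behind each gene were estimated with its longest annotated transcript, and the 95% interval of each ratio was computed (exact Clopper-Pearson). Intervals given below cover counting error only, and where a pair of levels is given the WT library comes first. Arrb1, the gene of β-arr1, was listed at 7.62 FPKM for WT and at 2.72 FPKM for KO, and its ratio was 0.358 (interval, 0.300 to 0.425).

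A level of 1 FPKM in one library or both was reached by 50 of the 63 genes, which were analysed. Loci are given below as the WT table's rows on the mm9 genome, and a row spans the exons and introns of its gene. A gene was counted as changed when its KO/WT ratio was above 3/2 or below 2/3, the limits used in the study. The minimum level and the handling of genes listed for only one library were set here. The study reported a smaller share of changed genes, and its set of genes was not rebuilt. By this rule 10 of the 50 genes (20.0%) were changed, against 17.8% of all 12646 genes analysed. Epha5, Epha7, Ephb2, Sema6b and Slit3 were above 3/2, and 9.56% of all genes were. Efna3, Efna5, Sema4f, Plxnc1 and Ntn3 were below 2/3, as were 8.28% of all genes. Ntn3 was listed in WT alone, and its row is described with the netrins. Among the 49 genes listed in both, 9 were past a limit, and all 9 had an interval without 1, compared with 14.6% and 12.9% of all genes listed in both. The deposited tables mark other genes with an axon guidance term, and 16 of 56 of these (28.6%) were past a limit.

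Both ligands and receptors held genes on either side. Among the ligands, 2 of 28 were above 3/2 and 4 below 2/3, and the median log2 ratio of the 27 listed in both tables was 0.03. Among the receptors, 3 of 22 were above 3/2 and 1 was below 2/3, with a median log2 ratio of 0.13. The median over all genes listed in both tables was 0.02. The interval of the ratio left out 1 in 28 of 49 genes listed in both tables (57.1%), with 17 higher and 11 lower in KO. Over all genes the interval left out 1 in 40.5%, with 22.2% higher and 18.3% lower. The median gene of the families held an estimated 265 fragments in WT and 340 in KO, compared with 300 and 316 over all genes. With the shortest coding transcript in place of the longest, the interval left out 1 in 19 of the 49 genes (38.8%, against 26.7% of all genes with such a transcript). The 9 genes whose interval then included 1 were Ephb2, Ephb6, Ntn1, Plxnb1, Plxnd1, Sema3d, Sema5a, Sema6a and Slit2, and the intervals below are those with the longest transcript unless the shortest is named.

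Markers of several cell types differed between the 2 libraries. Of the astrocyte markers, 4 of 11 analysed were above 3/2 and 0 below 2/3, with a median log2 ratio of 0.45. Their sum was 404 FPKM in WT against 431 FPKM in KO. Gfap, the filament protein of astrocytes, was at 189 and 192 FPKM, and Gjb6 was not listed in WT and stood at 0.0526 FPKM in KO. Oligodendrocyte lineage markers summed to 109 FPKM in WT and, in KO, 154 FPKM, with 4 of 9 above 3/2 and 1 below 2/3. Pericyte and fibroblast markers summed to 634 and 341 FPKM, with 5 of 8 below 2/3 and 1 above 3/2, which was Pdgfra, a gene of both lists. Microglia markers were high, at 1590 FPKM in WT against 1200 FPKM in KO summed over 12 genes, of which 1 was below 2/3. Endothelial markers summed to 118 and 116 FPKM, with 2 of 11 above 3/2, 1 below 2/3 (Cdh5, at 31.8 and 16.1 FPKM) and a median log2 ratio of 0.52. Skeletal muscle markers summed to 8.29 FPKM in WT and, in KO, 120 FPKM, and all 6 analysed were above 3/2, with Myh8 and Tnnc2 not listed in WT. Of the muscle markers under 1 FPKM, Myh1, Myh2 and Myh3 were listed in WT alone and Myod1 in KO alone. Precursor markers summed to 3440 and 4000 FPKM, mostly from Vim at 3220 and 3740 FPKM, with 2 of 9 above 3/2 and 1 below 2/3. Neuron markers summed to 83.1 and 106 FPKM, nearly all from Stmn2 and Tubb3, with 1 of 3 analysed above 3/2. The Y-linked genes summed to 8.44 FPKM in KO, and none was listed in WT. Sex therefore cannot be told apart from genotype in these 2 libraries. Efnb1, Plxna3 and Plxnb3, which were analysed, lie on the X chromosome, and the part of sex in the ratios was not tested. Many of the guidance genes are made by several of the cell types named above. Fewer cells of a type and less RNA per cell cannot be told apart in bulk RNA, and the part of these markers in the ratios of the guidance genes was not tested.

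**Figure D1:**
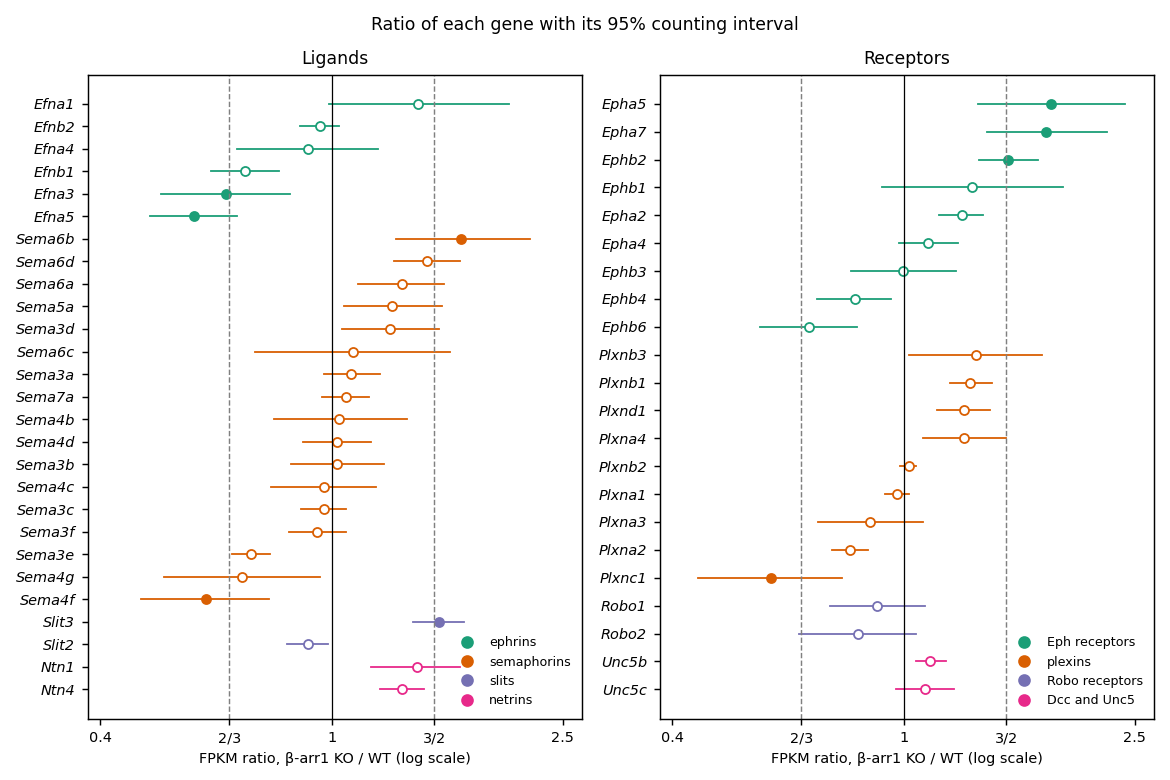
The FPKM ratio of β-arr1 KO to WT (log axis) is plotted for 27 ligands and 22 receptors, with the 95% counting interval as a line, filled points for genes above 3/2 or below 2/3 (dashed lines) and colours for the families. Epha5 has the highest ratio, 1.79, and Efna5 the lowest, 0.579, and most points lie between the dashed lines.

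Of 6 ephrin genes analysed, Efna3, Efna5 and Efnb1 were lower in the KO library with an interval below 1, and for Efna1, Efna4 and Efnb2 the interval included 1. An interval below 1 was found in 18.3% of all genes. The ratio itself was below 1 in 5 of the 6, as it was in 46.9% of all genes listed in both tables. Their median log2 ratio was -0.32, and the summed level of all 8 ephrin genes was 83.6 FPKM in WT against 70.0 FPKM in KO. Efnb2 (chr8:8617439-8661235, minus strand), a transmembrane ephrin that marks arteries, was the highest in both libraries, with 33.4 FPKM in WT and, in KO, 31.9 FPKM. Its ratio of 0.954 had an interval from 0.883 to 1.03, and a difference of this size cannot be seen at this depth. Efnb1 (chrX:96331457-96344330, plus strand) followed with 18.4 and 13.1 FPKM, for a ratio of 0.709 (interval, 0.620 to 0.810), just inside the lower limit.

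The 4 ephrin-A genes analysed, whose proteins are held to the membrane by a lipid anchor, were not all on one side. Efna5 (chr17:62952306-63232023, minus strand) was at 10.2 FPKM in WT against 5.91 FPKM in KO, for a ratio of 0.579 (interval, 0.487 to 0.686) from an estimated 368 and 219 fragments. It was the highest ephrin-A in WT and stood below Efna4 in KO, although the intervals of these neighbouring levels overlapped in both libraries. Efna3 (chr3:89117955-89126801, minus strand) was at 7.71 FPKM in WT and, in KO, 5.07 FPKM, for a ratio of 0.658 close to the lower limit, with an interval from 0.509 to 0.846 that reached across it. With a pseudocount of 1 FPKM it was 0.697, inside the limit. Efna4 was at 8.16 and 7.42 FPKM (interval of the ratio, 0.688 to 1.20). Efna1, which binds EphA2 among other receptors, was at 4.07 FPKM in WT against 5.74 FPKM in KO. Its ratio of 1.41 had an interval from 0.988 to 2.02 and so included 1.

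Efna1, Efna3 and Efna4 lie side by side on chromosome 3 of mm9. The gap between Efna3 and Efna4 is 10425 bases in the annotation, and that between Efna1 and Efna3 is 32757 bases. Their ratios were 1.41, 0.658 and 0.910 in the order Efna1, Efna3, Efna4, and the interval left out 1 for Efna3 alone. The intervals of Efna1 (0.988 to 2.02) and Efna3 (0.509 to 0.846) did not overlap.

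**Figure D2:**
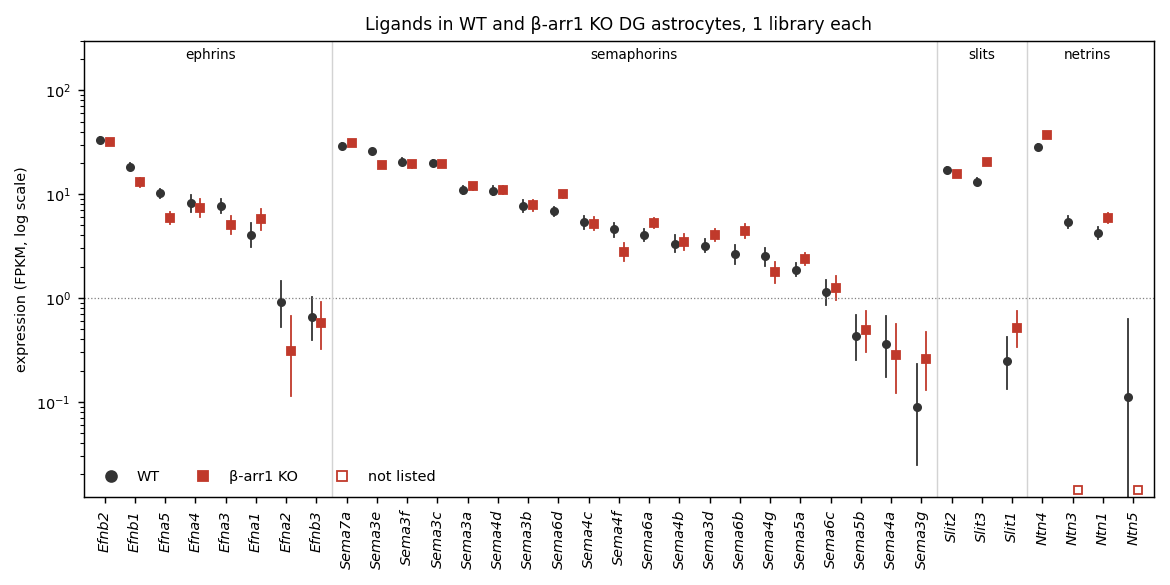
Levels of all 35 ligand genes in FPKM (log axis), with black circles for the WT library, red squares for the β-arr1 KO library, lines for the 95% counting interval of each level, and open squares at the foot for genes not listed in the KO table. Efnb2, Sema7a and Ntn4 are near the top of their families at 28.2 to 37.3 FPKM in both libraries, and the dotted line marks 1 FPKM.

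Of 9 Eph receptor genes analysed, 4 were higher in KO with an interval above 1, 2 were lower with an interval below 1, and 3 had an interval that included 1. Over all genes, 22.2% had an interval above 1 and 18.3% an interval below 1. Ratios were above 1 in 6 of the 9, against 53.1% of all genes listed in both tables, and the median log2 ratio was 0.33. All 4 EphA genes analysed had ratios above 1, from 1.10 to 1.79, and the interval left out 1 in all but Epha4. The EphA sum over 6 genes was 40.7 FPKM in WT and, in KO, 51.0 FPKM, while the ephrin-A sum over 5 genes was 31.1 and 24.5 FPKM. These sums describe 1 pair of libraries, and their ratios of 1.25 and 0.787 lie inside the limits.

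Epha5 (NCBI gene 13839, chr5:84483788-84846407, minus strand) encodes a receptor of ephrin-A ligands that is known from axon mapping. It was at 1.61 FPKM in WT against 2.88 FPKM in KO, for a ratio of 1.79 with an interval from 1.34 to 2.40. An estimated 75 and 138 fragments lay behind it. Epha7 (NCBI gene 13841, chr4:28740295-28894649, plus strand), another receptor of A-ephrins, was at 1.82 FPKM in WT and, in KO, 3.20 FPKM, for a ratio of 1.76 (interval, 1.39 to 2.24) from 112 and 201 fragments. The start and end of the row were the same in both tables for both genes. Both were low, and with a pseudocount of 1 FPKM their ratios were 1.49, inside the limit.

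Ephb2 (NCBI gene 13844, chr4:136209496-136392160, minus strand), a receptor of B-ephrins active at synapses, was at 4.84 FPKM in WT against 7.32 FPKM in KO. Its ratio of 1.51 was the nearest to the upper limit from above. With the libraries rescaled, either to a median ratio of 1 or on the upper quartile, it was 1.49 or 1.48, inside the limit. The annotation gives 6 transcripts of Ephb2, from a coding transcript of 828 bases to one of 10902 bases, and the interval was 1.35 to 1.70 with the longest and 0.934 to 2.49 with the shortest.

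Epha2 (chr4:140857136-140885299, plus strand), a receptor found on many dividing and epithelial cells, had the highest level of the Eph genes, 27.5 FPKM in WT and, in KO, 34.6 FPKM. Its ratio of 1.26 (interval, 1.15 to 1.37) lay within the limits. Epha4 (chr1:77363760-77511663, minus strand), which binds ephrins of both classes, was at 9.22 and 10.2 FPKM (interval, 0.980 to 1.24). Among the EphB genes, Ephb4 (10.4 and 8.53 FPKM, interval 0.710 to 0.952) and Ephb6 (7.91 and 5.43 FPKM) were lower in KO, and the interval left out 1 for both. Ephb6, whose kinase domain is inactive, had a ratio of 0.686, just inside the lower limit, and its interval included 1 with the shortest coding transcript. Ephb3 was nearly equal, with 4.40 and 4.39 FPKM (interval, 0.811 to 1.23), and Ephb1 was at 1.35 and 1.77 FPKM (interval, 0.916 to 1.88).

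**Figure D3:**
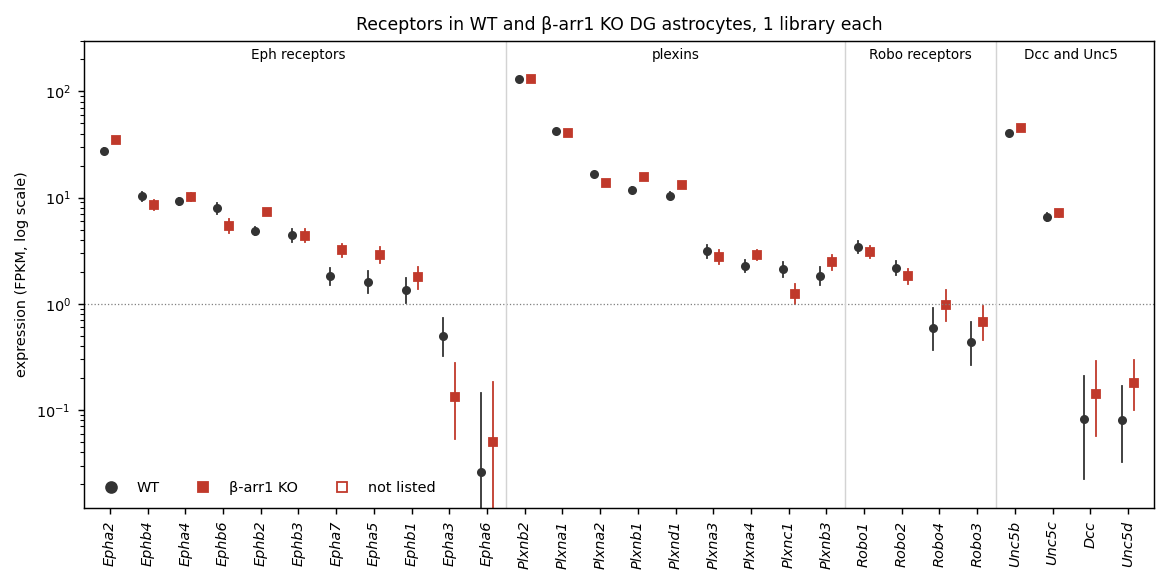
Levels of all 28 receptor genes in FPKM (log axis), drawn as for the ligands, with black circles for WT and red squares for β-arr1 KO. Plxnb2 stands highest at 130 and 132 FPKM, Epha5 and Epha7 are higher in the KO library, and Plxnc1 is lower in it.

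Among genes that reached 1 FPKM and were listed in both tables, Epha5 and Epha7 had the highest ratios of the receptors, and Efna5 and Sema6b the lowest and the highest ratio of the ligands. The sequences upstream of these 4 genes are shown so that the starts of the deposited rows can be set against them. They were chosen after their values had been seen. Each run is the 250 bases before a start site of the gene in RefSeq (GRCm38.p6), matched once to mm9 (NCBIM37) to place it. Capitals mark exact matches, on either strand, to 4 short motifs. These were GGGCGG, the GC box bound by Sp1 factors, then CCAAT, bound by the NF-Y factor, then TATAAA, the TATA box, and AGGTCA, the hexamer bound by many nuclear receptors.
Epha5, chr5:84846408-84846657, minus strand: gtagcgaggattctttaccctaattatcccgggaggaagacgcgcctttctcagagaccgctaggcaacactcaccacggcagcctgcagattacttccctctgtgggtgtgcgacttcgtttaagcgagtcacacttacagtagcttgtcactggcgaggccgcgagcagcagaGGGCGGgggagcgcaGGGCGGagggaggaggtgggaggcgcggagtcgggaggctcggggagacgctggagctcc
Epha7, chr4:28740031-28740280, plus strand: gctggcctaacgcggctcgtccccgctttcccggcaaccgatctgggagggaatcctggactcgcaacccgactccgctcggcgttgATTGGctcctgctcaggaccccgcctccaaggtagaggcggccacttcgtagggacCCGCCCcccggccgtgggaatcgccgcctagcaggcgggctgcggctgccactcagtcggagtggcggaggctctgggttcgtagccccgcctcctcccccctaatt
Efna5, chr17:63230667-63230916, minus strand: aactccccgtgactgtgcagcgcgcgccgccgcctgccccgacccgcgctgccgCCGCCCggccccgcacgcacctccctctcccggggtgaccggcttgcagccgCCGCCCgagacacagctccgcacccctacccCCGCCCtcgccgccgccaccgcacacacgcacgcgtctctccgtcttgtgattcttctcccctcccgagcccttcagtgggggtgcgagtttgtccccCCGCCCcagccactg
Sema6b, chr17:56279767-56280016, minus strand: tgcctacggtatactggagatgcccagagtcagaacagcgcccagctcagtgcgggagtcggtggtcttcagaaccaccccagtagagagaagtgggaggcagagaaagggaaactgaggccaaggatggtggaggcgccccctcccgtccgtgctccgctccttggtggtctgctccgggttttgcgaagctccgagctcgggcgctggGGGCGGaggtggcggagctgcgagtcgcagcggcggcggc

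All 4 windows held a GC box, with 2 matches for Epha5, 1 for Epha7, 4 for Efna5 and 1 for Sema6b, and 32.7% of the 32851 RefSeq windows of the same length hold at least 1. Of the other genes past a limit and listed in both tables, whose windows are not printed, Efna3, Plxnc1 and Slit3 held a GC box. Ephb2 and Sema4f held none. Epha7 also had 1 CCAAT match, a motif in 33.8% of all windows. The window of its other RefSeq start (chr4:28740045-28740294), not printed, held 2 CCAAT matches, 1 GC box and 23 CG dinucleotides. No TATA box or AGGTCA was found in the 4 printed windows, and 12.4% and 14.0% of all windows hold them. RefSeq has another start of Sema6b inside the gene, not printed, whose window (chr17:56273276-56273525) held 1 GC box, 1 CCAAT, 1 AGGTCA and 5 CG dinucleotides. The 4 printed windows were rich in CG dinucleotides, with 20 for Epha5, 25 for Epha7, 32 for Efna5 and 20 for Sema6b, compared with a median of 6 over all windows. Among the windows of Efna3, Ephb2, Plxnc1, Sema4f and Slit3, that of Sema4f held 4 and the rest 19 to 35. The RefSeq windows were not restricted to genes expressed in these cells, and windows of members within the limits were not examined. The shares therefore do not show whether these counts are particular to the genes past a limit. A match of letters is a description and shows no binding.

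The deposited rows of Epha5 and Sema6b started exactly at these RefSeq start sites in both libraries, and that of Epha7 started 14 bases inside, where RefSeq has another start of the gene. For Efna5 the KO row started at the RefSeq start, chr17:63230666, and the WT row reached 1357 bases farther upstream. The tables do not give the transcript length behind each value, so the part of this difference in the ratio of Efna5 was not tested.

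Semaphorins were the largest family. Of 20 genes, 17 were analysed, 1 was above 3/2 and 1 below 2/3 (11.8%, against 17.8% of all genes). The family summed to 162 FPKM in WT against 161 FPKM in KO, and its median log2 ratio was 0.05. Sema7a (chr9:57787922-57810672, plus strand), a semaphorin with a lipid anchor that binds plexin C1 and integrins, was the highest, at 29.3 FPKM in WT and, in KO, 31.0 FPKM (interval of the ratio, 0.963 to 1.16).

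Class 3 semaphorins, the secreted class, had 3 ratios above 1 and 3 below 1. Sema3c (19.9 and 19.3 FPKM), Sema3f (20.6 and 19.4 FPKM), Sema3a (11.0 and 11.9 FPKM) and Sema3b (7.65 and 7.82 FPKM) had intervals that included 1. In both libraries the intervals of the levels of Sema3c and Sema3f overlapped, so their order is not set. Sema3d was at 3.20 FPKM in WT against 4.03 FPKM in KO, for a ratio of 1.26. Sema3e (chr5:14025241-14287172, plus strand), which acts on plexin D1 without a neuropilin, was at 26.2 FPKM in WT and, in KO, 19.0 FPKM, for a ratio of 0.725 (interval, 0.673 to 0.782). The WT row of Sema3e ran 30483 bases past the end of the KO row at the 3′ side. The KO row ended at the annotated end of the gene. The part of this difference in the ratio was not tested.

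Class 6 semaphorins, transmembrane ligands of A-type plexins, had ratios above 1 in 4 of 4 genes, against 53.1% of all genes listed in both tables. The interval left out 1 in all but Sema6c, and 22.2% of all genes had an interval above 1. Sema6b (NCBI gene 20359, chr17:56262508-56279766, minus strand) was at 2.66 FPKM in WT against 4.45 FPKM in KO. Its ratio of 1.67 had an interval from 1.29 to 2.19, from an estimated 91 and 157 fragments, and with a pseudocount of 1 FPKM it was 1.49, inside the limit. Sema6d was just inside the limit, at 6.85 and 9.98 FPKM with a ratio of 1.46 (interval, 1.28 to 1.66). Sema6a was at 4.04 and 5.31 FPKM (interval, 1.11 to 1.56), and Sema6c at 1.15 and 1.25 FPKM (interval, 0.737 to 1.60). Summed, class 6 stood at 14.7 FPKM in WT and, in KO, 21.0 FPKM.

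Class 4 semaphorins are transmembrane ligands of B-type plexins. Sema4f (NCBI gene 20355, chr6:82861879-82889744, minus strand), at 4.57 FPKM in WT against 2.77 FPKM in KO, had a ratio of 0.607 (interval, 0.470 to 0.780) with 167 and 104 fragments and the same row in both tables. With a pseudocount of 1 FPKM the ratio was 0.677, inside the limit. Sema4g was lower as well, at 2.51 and 1.76 FPKM (interval, 0.514 to 0.956). Sema4d, a ligand of plexin B1, was at 10.8 and 11.0 FPKM, Sema4c at 5.36 and 5.20 FPKM and Sema4b at 3.34 and 3.46 FPKM, with intervals that included 1. Sema5a, a transmembrane semaphorin with thrombospondin repeats, was at 1.87 and 2.38 FPKM (interval, 1.05 to 1.55). In the KO table its row started 414 bases farther upstream and overlapped a row of 0610007N19Rik at 9.97 FPKM, and the part of that neighbour in its value was not tested.

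Plexins held the highest level of all 63 genes. Plxnb2 (chr15:88985979-89011218, minus strand), the receptor of class 4 semaphorins in neural precursors, was at 130 FPKM in WT and, in KO, 132 FPKM, a level above 97.3% of the listed genes in each library. It made up 58.9% of the plexin sum in WT and 58.8% in KO. Its ratio of 1.02 had an interval from 0.984 to 1.05, and the ratio was 0.998 after rescaling to the same upper quartile. Plxna1 (chr6:89266308-89312607, minus strand) came next at 42.0 and 40.8 FPKM (interval, 0.927 to 1.02), and Plxna2 was lower in KO, at 16.8 and 13.6 FPKM, for a ratio of 0.809 (interval, 0.753 to 0.869).

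Plxnc1 (NCBI gene 54712, chr10:94253612-94407429, minus strand), the plexin that binds Sema7a, was the only plexin past a limit under the rule used. It was at 2.11 FPKM in WT against 1.25 FPKM in KO, for a ratio of 0.590 (interval, 0.443 to 0.782) with 136 and 82 fragments. The KO row started 217 bases farther inside the gene than the WT row, and with a pseudocount of 1 FPKM the ratio was 0.722, inside the limit. Plxnb1 (11.9 and 15.5 FPKM), Plxnd1 (10.4 and 13.2 FPKM), Plxna4 (2.27 and 2.89 FPKM) and Plxnb3 (1.84 and 2.45 FPKM) were higher in KO by ratios of 1.27 to 1.33, within the limits, and their intervals left out 1. Plxna3 was at 3.14 and 2.75 FPKM (interval, 0.711 to 1.08).

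Neuropilins complete the receptor of class 3 semaphorins. Nrp1 was at 46.2 FPKM in WT and, in KO, 35.7 FPKM, for a ratio of 0.774 (interval, 0.729 to 0.821), and Nrp2 at 23.9 and 27.2 FPKM, for a ratio of 1.14 (interval, 1.06 to 1.22). Both lay within the limits and on opposite sides of 1.

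**Figure D4:**
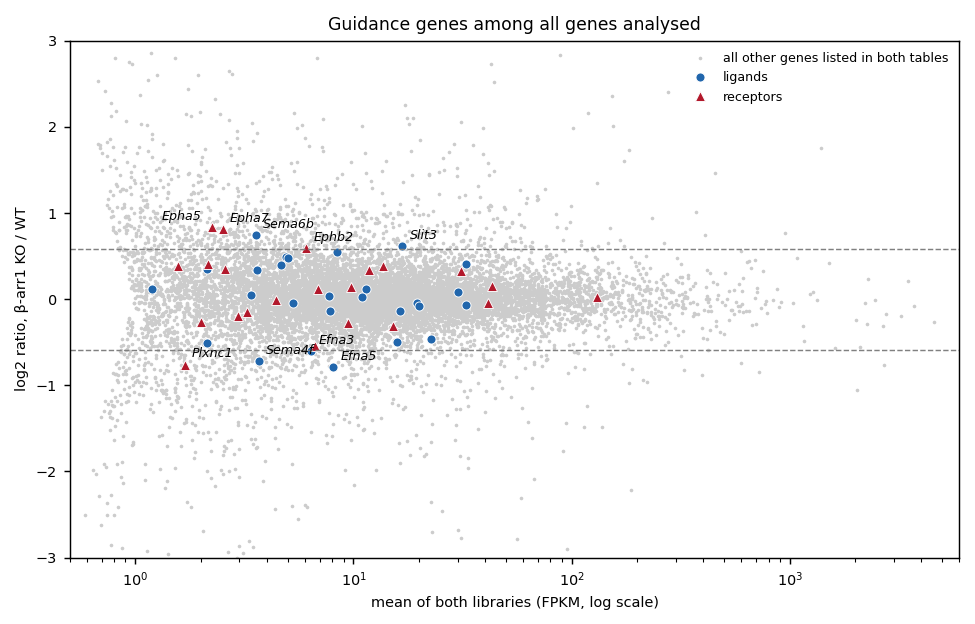
The log2 ratio of β-arr1 KO to WT is plotted against the mean FPKM of both libraries (log axis) for genes listed in both tables, with all other genes in grey, ligands as blue circles and receptors as red triangles, and 43 genes beyond the vertical axis not drawn. The named genes outside the dashed lines at 3/2 and 2/3 lie inside the cloud of all genes at similar levels, where 23.8% of genes with a mean of 1 to under 10 FPKM and 9.06% of genes at 10 FPKM or more were past a limit.

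Slits, the ligands of Robo receptors, were led by different genes in the 2 libraries. Slit2 (chr5:48374394-48697017, plus strand) was at 17.1 FPKM in WT against 15.5 FPKM in KO, for a ratio of 0.909 (interval, 0.838 to 0.985, or 0.672 to 1.23 with the shortest coding transcript). Slit3 (NCBI gene 20564, chr11:34934948-35525474, plus strand) was at 13.2 FPKM in WT and, in KO, 20.2 FPKM, for a ratio of 1.53 (interval, 1.38 to 1.69) from an estimated 626 and 980 fragments. Slit2 thus made up 55.9% of the slit sum in WT and 42.8% in KO. With the longest transcripts the counting intervals of the 2 levels did not overlap in either library. With its shortest coding transcript Slit2 rested on an estimated 91 fragments in each library, and intervals of the levels were not computed that way. The KO row of Slit3 began 340 bases farther upstream, and with a pseudocount of 1 FPKM the ratio was 1.49.

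Both genes hold a copy of the miRNA miR-218, Mir218-1 within Slit2 (chr5:48615181-48615290) and Mir218-2 within Slit3 (chr11:35430318-35430427). Their mature sequences are shown, with the seed in capitals, because the 5p arms of both copies are the same. The miRNAs themselves have no value in these tables.
mmu-miR-218-5p, from both copies: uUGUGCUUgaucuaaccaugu
mmu-miR-218-1-3p, Mir218-1 only: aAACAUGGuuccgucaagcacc
mmu-miR-218-2-3p, Mir218-2 only: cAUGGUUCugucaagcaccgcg

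Robo receptors were low. Robo1 (chr16:72663394-73046345, plus strand) was at 3.42 FPKM in WT against 3.08 FPKM in KO (interval of the ratio, 0.746 to 1.09), and Robo2 (chr16:73892551-74411878, minus strand) at 2.18 and 1.82 FPKM (interval, 0.660 to 1.05). Both lay within the limits, and no difference was detectable at this depth. Robo4, known from blood vessel endothelium, was at 0.596 and 0.981 FPKM, and its neighbour Robo3 at 0.437 and 0.672 FPKM. Their annotated genes are 1646 bases apart on chromosome 9, and both intervals, of 0.936 to 2.97 and 0.849 to 2.85, included 1.

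Netrins were dominated by Ntn4 (chr10:93103721-93209903, plus strand), a netrin that binds laminins of basement membranes. It was at 28.2 FPKM in WT and, in KO, 37.3 FPKM, for a ratio of 1.32 (interval, 1.21 to 1.44). Ntn1 (chr11:68022866-68200328, minus strand), the netrin that attracts commissural axons through Dcc, was at 4.20 and 5.86 FPKM. The interval of its ratio was 1.17 to 1.66. Both were within the limits.

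Ntn3 had a value in the WT table, 5.37 FPKM, and none in the KO table. Its WT row ran on chromosome 17 from 24312376 to 24346332, although the annotated Ntn3 gene spans only 24340793 to 24346332 on the minus strand. The rest of the row is the annotated Tbc1d24 gene, 24312376 to 24342507 on the same strand, which overlaps the Ntn3 gene. In the KO table a row with the same start and end carried the symbol Tbc1d24 at 4.55 FPKM, and Tbc1d24 was not listed in WT. The 2 rows together gave a ratio of 0.849, inside the limits. These rows were set together after their values had been seen. The count of genes below 2/3 is 4 without Ntn3, and these tables do not show how much of either row is netrin 3.

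**Figure D5:**
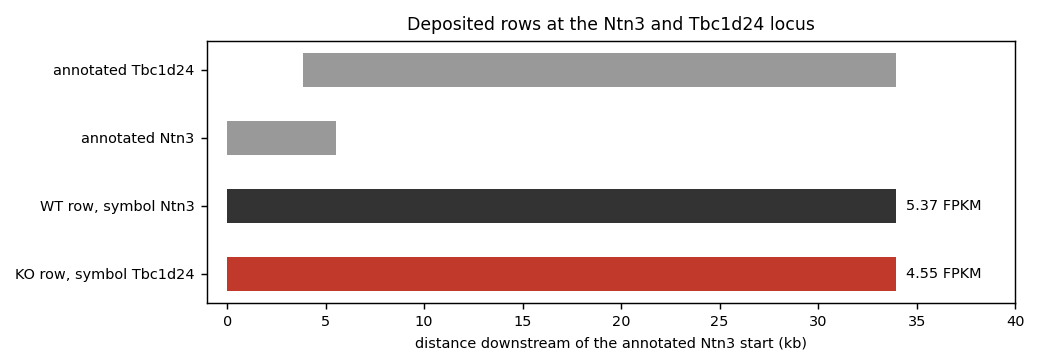
Extent of the annotated Tbc1d24 and Ntn3 genes (grey) and of the deposited rows in WT (black) and β-arr1 KO (red), drawn to scale as the distance in kb downstream of the annotated Ntn3 start. The WT row named Ntn3 at 5.37 FPKM and the KO row named Tbc1d24 at 4.55 FPKM cover the same stretch.

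Among the netrin receptors, Unc5b (chr10:60225343-60294329, minus strand), which mediates repulsion and survival signals, was far the highest. It was at 40.8 FPKM in WT against 45.3 FPKM in KO, for a ratio of 1.11 (interval, 1.05 to 1.18), and made up 85.9% of the Dcc and Unc5 sum in each library. Unc5c (chr3:141127822-141497886, plus strand) was at 6.56 and 7.13 FPKM (interval, 0.969 to 1.22). Dcc, the attractive netrin receptor of neurons, rested on an estimated 4 fragments in WT and 7 in KO, at 0.0825 and 0.141 FPKM. Neo1, which encodes neogenin, a relative of Dcc, was at 27.1 and 29.1 FPKM (ratio 1.07).

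The 13 genes under 1 FPKM in both libraries, named here after their values had been seen, were Efna2, Efnb3, Sema3g, Sema4a, Sema5b, Slit1, Ntn5, Epha3, Epha6, Robo3, Robo4, Dcc and Unc5d. Their listed values ran from 0.0259 FPKM for Epha6 in WT to 0.981 FPKM for Robo4 in KO. In 3 of them the interval left out 1. Efna2 was at 0.909 and 0.312 FPKM, with 17 and 6 fragments. Epha3 was at 0.500 and 0.134 FPKM, with 26 and 7 fragments and a ratio of 0.268 (interval, 0.0982 to 0.634). Slit1 was higher in KO, at 0.248 and 0.515 FPKM, with 13 and 27 fragments, and its interval included 1 with the shortest coding transcript. Ntn5 rested on 1 fragment in WT and was not listed in KO, and its row overlapped that of Sec1 in WT.

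The partners of these receptors inside the cell and at its surface were taken as 4 lists, 100 genes in all. Of the 92 analysed, 8 were above 3/2 and 7 below 2/3 (16.3%, against 17.8% of all genes), with a median log2 ratio of 0.03. Among 21 co-receptors and other binding partners, Met was above 3/2 (4.91 and 8.13 FPKM), while Cd72, a receptor of Sema4d (61.2 and 39.0 FPKM), and Flrt2, a ligand of Unc5 receptors (25.2 and 13.3 FPKM), were below 2/3. L1cam, named after its values had been seen, was also below 2/3 (1.99 and 0.668 FPKM). In all, 19.0% of these 21 genes were past a limit, against 17.8% of all genes. Among 25 semaphorin effectors, 2 were above 3/2 and 3 below 2/3 (20.0%, against 17.8% of all genes). Cdk5 was at 18.3 and 28.6 FPKM, Sh3bp1 at 21.6 and 13.2 FPKM, and the cofilin kinase Limk1 at 14.2 and 9.38 FPKM.

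Of 27 effectors of Eph receptors analysed, 1 was past a limit (3.7%, against 17.8% of all genes). This was Ngef, which encodes ephexin, a protein bound by EphA4. It was at 1.34 FPKM in WT against 5.51 FPKM in KO, for a ratio of 4.12 (interval, 2.86 to 6.07). Among 19 slit and netrin effectors, 4 were above 3/2 and Pitpna was below 2/3 (93.3 and 59.6 FPKM). Together these were 26.3% of the list, against 17.8% of all genes. Srgap2, a GTPase-activating protein of the slit and Robo pathway, was at 20.0 and 31.5 FPKM, for a ratio of 1.57. Arhgap39, which binds Robo receptors, was at 4.60 and 12.2 FPKM, for a ratio of 2.66 (interval, 2.25 to 3.16). Srgap1, named after its values had been seen, was at 4.86 and 10.6 FPKM, for a ratio of 2.19 (interval, 1.92 to 2.49). Srgap3, named in the same way, was at 15.1 and 18.2 FPKM, for a ratio of 1.20.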

How the data were processed

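RNA sequencing had 1 library of WT and 1 of β-arr1 KO astrocytes, grouped by the genotype in the labels. Per the study's methods, paired reads were aligned to mm9 with TopHat (version 1.4.0 in the submitters' processing notes) and expression was estimated with Cufflinks, whose version is not given in the sources used here. The authors deposited FPKM values per gene with a symbol, an NCBI gene number and a locus, and no read counts or errors were used. Values of both tables are given as deposited, without rescaling.

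Tables were joined by symbol, the highest row being kept for a repeated symbol, and a gene absent from one table was set to 0 there. The minimum level was 1 FPKM in one library or both, and ratios were taken without a pseudocount. Starts were shifted by 1 base, since 38.4% of WT starts then equalled those of the NCBIM37 (mm9) annotation, compared with 3.04% as written. Depth came from 411 WT and 428 KO genes under 0.15 FPKM with a single annotated transcript of over 1000 bases, of which 71.5% and 72.0% lay within 5% of a whole number of fragments up to 3. Fragments per gene used the same transcript for both libraries, with its length reduced by 190 bases in WT and 140 in KO. These reductions were fitted together with the depth, to put the largest share of those genes on whole numbers. A difference in the transcripts measured is outside the intervals. The computation was tested on simulated data.

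All members analysed were named with both levels. Ratio, interval and locus were given for those past a limit and listed in both tables. For the 2 highest of each family the interval and locus were given, with the ratio for some of them. A ratio or an interval, or both, was given for some others. Of the pathway lists, at most the 3 highest genes past a limit were named, besides Nrp1, Nrp2 and Neo1, and L1cam, Srgap1 and Srgap3, which were added after their values were seen. The members and lists were chosen with earlier results of these data known. Alternatives were other minimum levels, pseudocounts, rescalings, summed rows, equal row bounds, limits of 2 and 1/2 and the shortest coding transcript. The restriction to genes listed in both tables and the joining of the Ntn3 and Tbc1d24 rows were added after seeing the data. Software was Python 3.11.15 with the packages numpy 2.4.6, pandas 2.3.3, scipy 1.17.1 and, for figures, matplotlib 3.10.9.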

Additional observations from a re-analysis of the deposited data

How the results depend on the processing

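The counts of genes above 3/2 and below 2/3, 5 and 5, moved with the minimum level. They were 11 and 8 at a minimum of 0.1 FPKM, 12 and 8 without a minimum, and 2 and 3 at a minimum of 5 FPKM. They made up 30.6%, 31.7% and 15.2% of the genes then analysed, and the share of all genes moved as well, to 26.0%, 29.6% and 12.5%. A pseudocount of 1 FPKM left 0 and 2 genes past a limit, Efna5 and Ntn3, and limits of 2 and 1/2 left 0 and 1, which was Ntn3. These were 4.0% and 2.0% of the genes analysed, against 13.0% and 9.2% of all genes. Only genes with the same row bounds in both tables gave 3 and 1, which were Epha5, Epha7, Sema6b and Sema4f. Those were 15.4% of the 26 genes then analysed, against 13.8% of all genes. Rescaling on the upper quartile, or to a median ratio of 1, gave 4 and 5, without Ephb2 (18.0%, against 17.8% of all genes). Rescaling to the same sum, a pseudocount of 0.1 and summed rows kept all 10 genes (20.0%, against 17.4% to 17.9% of all genes). A minimum of 1 FPKM in both libraries, or the restriction to genes listed in both tables, kept all except Ntn3. Either way 18.4% of the genes analysed were past a limit, against 11.8% and 14.6% of all genes. The median log2 ratio stayed between -0.01 and 0.04 for ligands and between 0.08 and 0.24 for receptors under these alternatives. No paired analysis was possible because there was 1 library per genotype, and none could be left out. Read depth limits the genes under 1 FPKM most.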
